A study of Mus musculus with 18 samples.

Results

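The 9 genes described here mark B cells and the plasma cells they give rise to. They are Cd22, Cd79a, Cd79b, Ms4a1, Jchain, Mzb1, Ighm, Pou2af1 and Pax5, taken by symbol from a table of estimated counts for 51290 genes, and each was found. They were followed through 18 mouse RNA libraries in 3 groups of 6. The normal nerve libraries came from trigeminal nerve of Nf1 flox/flox PostnCre- mice, in which Nf1 carries floxed alleles and no Cre is present. The plexiform neurofibroma libraries came from trigeminal nerve of Nf1 flox/flox PostnCre+ mice, in which a Cre under the Postn promoter can delete Nf1, a brake on RAS signalling. The malignant peripheral nerve sheath tumour (MPNST) libraries came from tumours of 6 mice that were Nf1 flox/flox Arf flox/flox PostnCre+, in which the tumour suppressor Arf is floxed as well. All 3 groups thus carry floxed Nf1, and the labels give no body site for the MPNST and no age for any mouse. The labels assign the nerve and neurofibroma libraries to an earlier series, so tumour stage, Arf, body site and series cannot be told apart in comparisons with MPNST.

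B cells read antigen through a membrane immunoglobulin, whose mu heavy chain is encoded by Ighm, coupled to the signalling pair Cd79a and Cd79b. Ms4a1 encodes the surface protein CD20, and Cd22 an inhibitory receptor that binds sialic acid. Pax5 is the transcription factor that holds B cell identity, and Pou2af1 is a B cell coactivator of the octamer-binding factors. On becoming plasma cells, B cells lower Pax5 and Ms4a1 and raise the secretory machinery. Jchain joins secreted IgM and IgA into polymers, and Mzb1 is a chaperone of the endoplasmic reticulum that serves antibody secretion.

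Promoters are shown for 3 members, to set letters known from B cell gene control beside genes that were high together in 1 tumour. RefSeq promoters (250 bases before to 50 after the start, build GRCm38.p6, which is not the build of the counts) were matched for 5 of the 9, Cd22, Cd79a, Jchain, Pou2af1 and Pax5. Cd79b, Ms4a1, Mzb1 and Ighm were not matched. Both strands were searched for the octamer ATGCAAAT, its core TGCAAAT, the EBF1 palindrome and its core CCCNNGGG, the E-box CANNTG and TATAAA, of which the cores lie inside the longer forms. Capitals mark the EBF1 palindrome in Cd22 (chr7:30878979-30879278, minus strand), both E-boxes in Cd79a (chr7:24897247-24897546, plus strand) and the octamer core in Pou2af1 (chr9:51213440-51213739, plus strand).

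Cd22: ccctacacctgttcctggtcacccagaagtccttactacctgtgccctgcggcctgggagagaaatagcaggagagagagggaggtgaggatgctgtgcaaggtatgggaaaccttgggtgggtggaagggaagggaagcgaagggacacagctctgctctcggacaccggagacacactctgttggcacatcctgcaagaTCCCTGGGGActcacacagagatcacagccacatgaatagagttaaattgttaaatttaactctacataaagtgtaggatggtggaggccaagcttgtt

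Cd79a: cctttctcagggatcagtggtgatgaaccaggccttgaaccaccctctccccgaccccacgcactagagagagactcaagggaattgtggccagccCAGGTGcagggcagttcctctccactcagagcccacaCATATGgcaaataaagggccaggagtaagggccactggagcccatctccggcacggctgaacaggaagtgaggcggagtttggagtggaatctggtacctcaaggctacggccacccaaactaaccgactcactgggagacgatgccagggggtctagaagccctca

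Pou2af1: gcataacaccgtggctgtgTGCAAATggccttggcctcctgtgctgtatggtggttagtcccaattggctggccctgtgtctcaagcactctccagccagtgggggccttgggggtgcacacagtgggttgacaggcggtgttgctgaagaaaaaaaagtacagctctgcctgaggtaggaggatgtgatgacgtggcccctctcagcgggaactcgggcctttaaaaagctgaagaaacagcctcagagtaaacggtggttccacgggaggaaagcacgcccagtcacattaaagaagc

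The EBF1 palindrome stood in Cd22 alone of the 5, starting 49 bases before the start, and in 0.904% of 32851 promoters of this length. Its core CCCNNGGG also stood in Cd22 alone, within that match, and in 13.7% of promoters. The octamer core stood in Pou2af1 alone, 231 bases before the start, where it overlaps an E-box, and in 4.02% of promoters. All 5 held an E-box, as did 72.3% of promoters, and none held the full octamer (1.74%) or TATAAA (13.6%). A match describes letters only.

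Library totals ran from 13886399 to 23652959 counts. Transcripts of other tissues were seen in several. The 11 salivary gland genes listed took 28.3% of the counts of MPNST library 2 (Bpifa2 at 235219 CPM, counts scaled to the library's total), and its other CPM values are lowered by that; its TMM factor, the scaling used in the tests, was 0.406, against 0.96 to 1.144 in the other 17. Levels are given as CPM. TMM-scaled CPM are given beside some of the values they change, and were added after seeing the data. Levels in MPNST library 2 are higher with TMM scaling, also where only CPM is printed. Skeletal muscle genes were high in MPNST library 3 (Ckm, muscle creatine kinase, at 7107 CPM). The library labelled MPNST 6 was high in sympathoadrenal and pancreatic acinar genes, with mean log2(CPM + 1) list levels of 7.38 and 7.80. Nf1, the targeted gene, stood at 123 ± 32.5 CPM (mean ± SD, n = 6) for nerve, 81.8 ± 8.95 for neurofibroma and 60.3 ± 32.4 for MPNST, and the library labelled MPNST 6 held 122.8 CPM; a count of the whole gene does not read the floxed exons. The list level of 8 Schwann cell markers was at least 7.99 in every trigeminal library and at most 7.21 in every MPNST. In bulk RNA, more cells of a type and more RNA per cell cannot be told apart.

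In MPNST library 1 every member was higher than in any other of the 18 libraries. Cd79a stood there at 132 CPM, 35.4-fold above the next library, and Ms4a1 at 87.4 CPM, 148-fold above the next. With TMM-scaled CPM, MPNST library 2 came next for Ms4a1, and the fold was 107. Pax5 was 2.44-fold above the next. Jchain was 4.13-fold above MPNST library 4, but with TMM-scaled CPM it was 1.87-fold above MPNST library 2, and Cd22 went from 9.69-fold above library 5 to 5.66-fold above library 2. MPNST library 1 alone supplied 98.6% of the CPM summed over the 6 MPNST for Cd79a, 98.9% for Ms4a1 and 68.4% for Jchain (55.5% with TMM-scaled CPM). The mean log2(CPM + 1) over the 9 members was 6.96 there, 2.76 in MPNST library 4 and at most 1.86 in every other library; with TMM-scaled CPM, MPNST library 2 reached 2.68 and library 4 2.62. In the plot of members by library this single point sits at the top of all 9 panels.

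**Figure D1:**
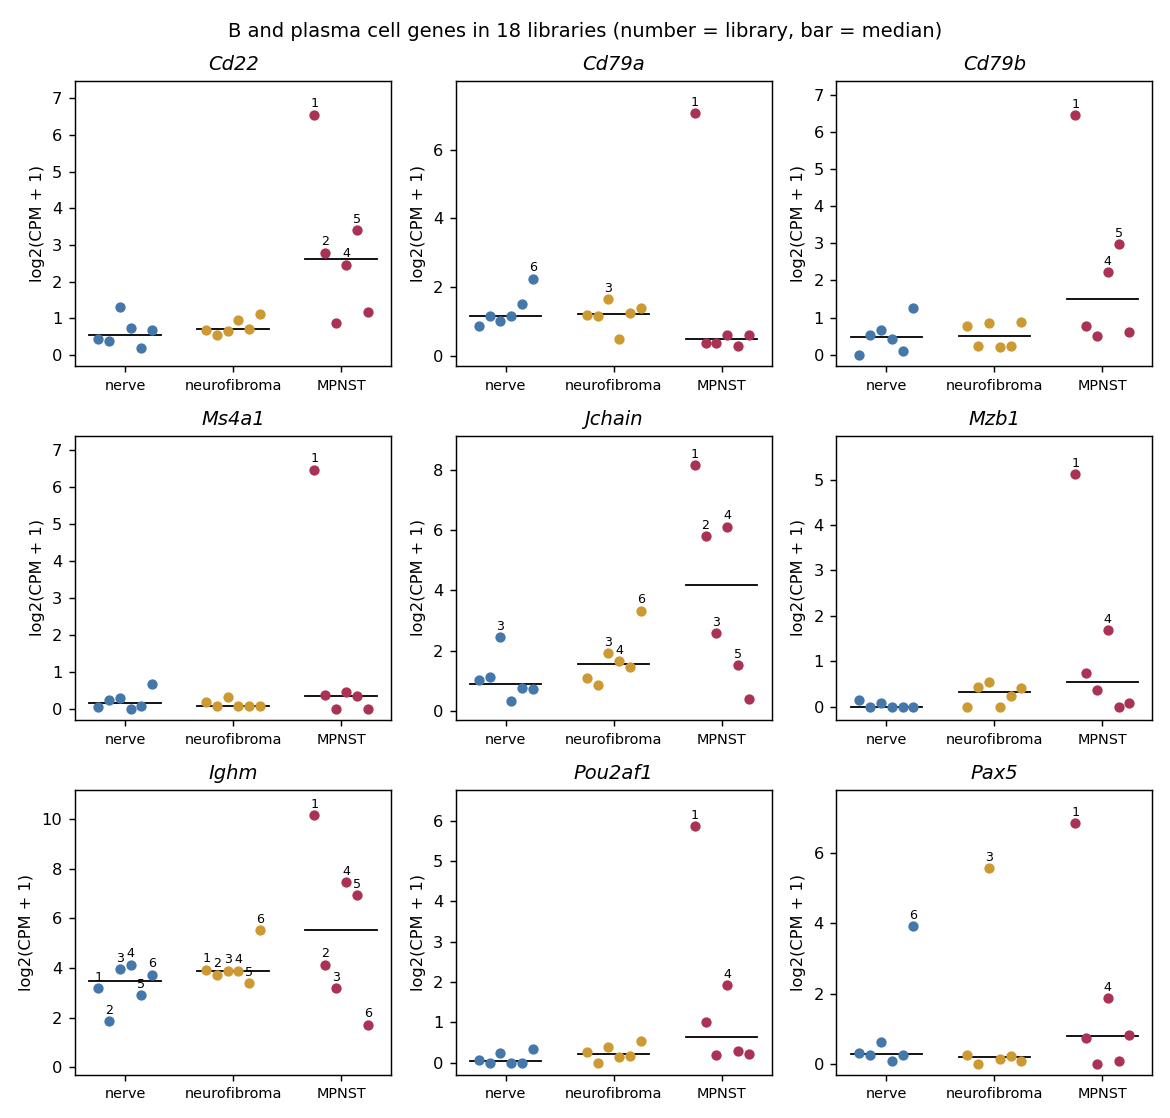
Level of each of the 9 genes, as log2(CPM + 1), in 6 nerve, 6 neurofibroma and 6 MPNST libraries; points are libraries, numbers name the libraries above 1.5, and bars are medians. MPNST library 1 is highest in all panels, and Pax5 is also high in nerve library 6 and neurofibroma library 3.

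Receptor genes come first. Cd79a held 132 CPM in MPNST library 1 and 0.296, 0.281, 0.515, 0.216 and 0.524 CPM in libraries 2 to 6. Nerve ran from 0.816 to 3.73 CPM (median 1.22) and neurofibroma from 0.385 to 2.15 CPM (median 1.29). The other 5 MPNST libraries were thus each below all 6 nerve libraries, and 3 of them (2 with TMM-scaled CPM) below all 6 neurofibroma libraries, while the first was above all 12. These low values rest on 3 to 12 counts a library.

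Its partner Cd79b did not follow it. Cd79b held 86.2 CPM in MPNST library 1, 0.719 in 2, 0.421 in 3, 3.65 in 4, 6.84 in 5 and 0.524 in the library labelled MPNST 6. Nerve ran from 0 to 1.38 CPM (median 0.390) and neurofibroma from 0.165 to 0.849 (median 0.437), so MPNST libraries 1, 4 and 5 lay above both groups. With TMM-scaled CPM, library 2 (1.77) did so too. In MPNST library 5 there were 95 Cd79b counts and 3 Cd79a counts, against 1510 and 2316 in library 1. Counts per gene also depend on transcript length, so only the change of this ratio between libraries can be read.

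Cd22, the inhibitory receptor, held 92.8, 5.92, 0.843, 4.51, 9.58 and 1.26 CPM in MPNST libraries 1 to 6. Nerve ran from 0.140 to 1.48 CPM (median 0.473) and neurofibroma from 0.462 to 1.18 (median 0.620). MPNST libraries 1, 2, 4 and 5 lay above all 12 trigeminal libraries and the other 2 within their range. Ms4a1, the CD20 gene, was near the limit of detection outside MPNST library 1. It had 1532 counts there and between 0 and 9 counts in each of the other 17 libraries.

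Ighm, the mu heavy chain, was the one member well detected everywhere. It held 1137, 16.7, 8.15, 175, 122 and 2.31 CPM in MPNST libraries 1 to 6, 2.61 to 16.6 CPM in nerve (median 10.2) and 9.45 to 44.9 CPM in neurofibroma (median 13.9). MPNST libraries 1, 4 and 5 stood above all trigeminal libraries, and the library labelled MPNST 6 was the lowest of the 18. MPNST library 2 held 41.0 TMM-scaled CPM, below neurofibroma library 6 at 42.6. Neurofibroma library 6, at 44.9 CPM, was the highest of its group.

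The secretory members were high in another set of MPNST libraries. Jchain held 281, 54.2, 5.06, 68.1, 1.87 and 0.314 CPM in MPNST libraries 1 to 6. Nerve ran from 0.270 to 4.45 CPM (median 0.885) and neurofibroma from 0.808 to 9.08 (median 1.95), leaving MPNST libraries 1, 2 and 4 above both. Mzb1 had 590 counts in MPNST library 1, 52 in library 4 and 16 in library 2, and at most 9 in any other. In nerve it totalled 3 counts over 6 libraries, which is the floor used here for a gene not detected, so no fold is given against it.

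Of the nuclear members, Pou2af1 had 1009 counts in MPNST library 1, 65 in library 4 and 24 in library 2, against at most 7 in any other library. The same 3 libraries were highest for Mzb1 and Jchain. With TMM-scaled CPM, library 2 was level with library 4 for Pou2af1 (2.50 and 2.44), above it for Jchain and below it for Mzb1. Pax5 had a pattern of its own. It held 114, 0.676, 0, 2.66, 0.0720 and 0.786 CPM in MPNST libraries 1 to 6, but also 46.5 CPM in neurofibroma library 3 and 14.1 CPM in nerve library 6. The other 5 nerve libraries held at most 0.534 CPM and the other 5 neurofibroma libraries at most 0.199 CPM.

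The other members did not reach such levels in those 2 libraries. Nerve library 6 was the highest of the 12 trigeminal libraries for Cd79a (3.73 CPM), Cd79b (1.38 CPM) and Ms4a1, all low beside MPNST library 1. Ms4a1 held 0.256 CPM in neurofibroma library 3 and 0.589 CPM in nerve library 6, and Pou2af1 0.307 and 0.262 CPM. Nerve library 6 was high in midbrain genes (list level 5.56, at most 1.10 in any other library), among them En1, a midbrain-hindbrain patterning gene, at 26.1 CPM. Pax5 is itself known from patterning of that region. Neurofibroma library 3 was high in nasal gland genes (level 7.65), a list also high in MPNST library 2 (5.98); Lcn3, a lipocalin, stood at 28.6 CPM in the former and was listed at 0 in the other 17. Both lists were drawn up once these libraries had been seen, and their part in the Pax5 values was not tested.

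Plexiform neurofibroma was set against normal nerve to ask whether loss of Nf1 in the trigeminal nerve moves these genes. None of the 4 members with enough counts for the test passed an adjusted p (Benjamini-Hochberg) of 0.05, where 7.89% of all 16464 genes tested were higher and 6.27% lower. The edgeR log2 changes were 1.08 for Jchain (SE 0.68, adjusted p = 0.296), 0.83 for Ighm (SE 0.45, adjusted p = 0.224), 0.30 for Cd22 (SE 0.46, adjusted p = 0.690) and -0.30 for Cd79a (SE 0.43, adjusted p = 0.660). At an unadjusted p below 0.05 the count was also 0, for which no share of all genes was computed. DESeq2 (10.4% of all genes higher, 8.67% lower) and limma-voom (12.8% and 11.8%) called 0. The other 5 members did not pass the filter on low counts. At these levels smaller changes were not detectable.

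Some other genes of the lineage rose, to be read beside the 7.89% of all genes that were higher. Of 24 further B lineage genes 11 were tested and 2 rose, Cd72 (1.81, SE 0.44, adjusted p = 0.0188, edgeR), a receptor of B cells and macrophages, and Btk (1.09, SE 0.33, adjusted p = 0.0449), a kinase downstream of the B cell receptor. Of 20 plasma cell and secretory genes 17 were tested and 6 rose, led in size by Prdm1 (1.2, SE 0.29, adjusted p = 0.018), the factor that drives plasma cell fate and acts in other cells too. The remaining rises were 0.30 to 0.62. The 3 immunoglobulin constant genes tested were not called, at 1.04 for Igkc (adjusted p = 0.394), 1.19 for Igha (0.281) and 0.15 for Ighg2c (0.926). List medians were 0.81, 0.33 and 1.04, beside -0.02 over all genes. Macrophage list levels were 2.59 to 4.14 (nerve) and 3.77 to 4.73 (neurofibroma); their part in these rises was not tested.

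MPNST was set against neurofibroma, the comparison named in the series' design text. Of 5 members tested, 4 rose and Cd79a was not called, beside 25.3% of all 16537 genes higher and 16.8% lower. Cd79b rose by 5.03 (SE 1.34, adjusted p = 0.0105, edgeR), Jchain by 4.86 (SE 1.39, adjusted p = 0.0152), Cd22 by 4.81 (SE 1.07, adjusted p = 0.00423) and Ighm by 3.73 (SE 1.18, adjusted p = 0.0239). Cd79a differed by 4.0 (SE 1.62, adjusted p = 0.0639). Ms4a1, Mzb1, Pou2af1 and Pax5 did not pass the filter because too few libraries held enough counts. Those of Ms4a1, Mzb1 and Pou2af1 lay mostly in 1 library, and Pax5 had 1992 in MPNST library 1 and 910 in neurofibroma library 3. Fitted with no filter, where 11.3% of all genes were higher, Ms4a1 (6.85, SE 2.01, adjusted p = 0.0282) and Pou2af1 (5.55, SE 1.56, adjusted p = 0.0234) were called as well, and Mzb1 (0.0538) and Pax5 (0.659) were not.

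Leaving out libraries changed some of these calls. Without MPNST library 1, Cd79a turned to a fall of 1.43 (log2 change -1.43, SE 0.47, adjusted p = 0.0341), Ighm lost its call (1.98, adjusted p = 0.0893), and Cd22 (3.24), Cd79b (2.49) and Jchain (4.06) kept theirs, all by edgeR and beside 23.9% of all genes higher and 15.3% lower. Leaving out any one of neurofibroma libraries 1 to 5 also ended the Ighm call, with adjusted p from 0.0501 to 0.0533. Without MPNST libraries 1, 2 and 6 all 5 members were called, 4 higher (Ighm by 2.44, adjusted p = 0.0168) and Cd79a lower, beside 28.8% and 27.6% of all genes. Without MPNST libraries 1, 2 and 4, which were chosen as the richest in immunoglobulin, so that lower Jchain and Ighm follow from the choice, Cd22 was higher and Cd79a lower, beside 20.9% and 16.2% of all genes.

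Against normal nerve, which shares its MPNST libraries with the comparison above, 4 of 5 members rose beside 27.6% of all 16384 genes higher and 18.4% lower. Jchain rose by 5.93 (SE 1.48, adjusted p = 0.00672, edgeR), Cd22 by 5.11 (SE 1.16, adjusted p = 0.00412), Cd79b by 5.08 (SE 1.46, adjusted p = 0.0142) and Ighm by 4.56 (SE 1.23, adjusted p = 0.0101). Cd79a differed by 3.71 (SE 1.60, adjusted p = 0.0752). Without MPNST library 1 it fell by 1.73 (SE 0.50, adjusted p = 0.0179) and Cd79b lost its call (2.53, adjusted p = 0.0527), beside 25.7% of all genes higher and 16.7% lower. Without MPNST libraries 1, 2 and 6, Cd79b was called (2.90, adjusted p = 0.0329), with 4 members higher and 1 lower, beside 28.6% and 27.9% of all genes. Without MPNST libraries 1, 2 and 4 the count was again 1 higher and 1 lower (21.2% and 17.1% of all genes). With no filter on low counts 7 of 9 members were higher, beside 12.8% of all genes. Among them were Ms4a1, Mzb1 and Pou2af1, which rest mostly on MPNST library 1. It supplied 98.9%, 91.2% and 93.0% of their CPM summed over the MPNST. Mzb1 had only 3 counts over all nerve libraries. The plot of fitted changes shows this turn of Cd79a in both comparisons.

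**Figure D2:**
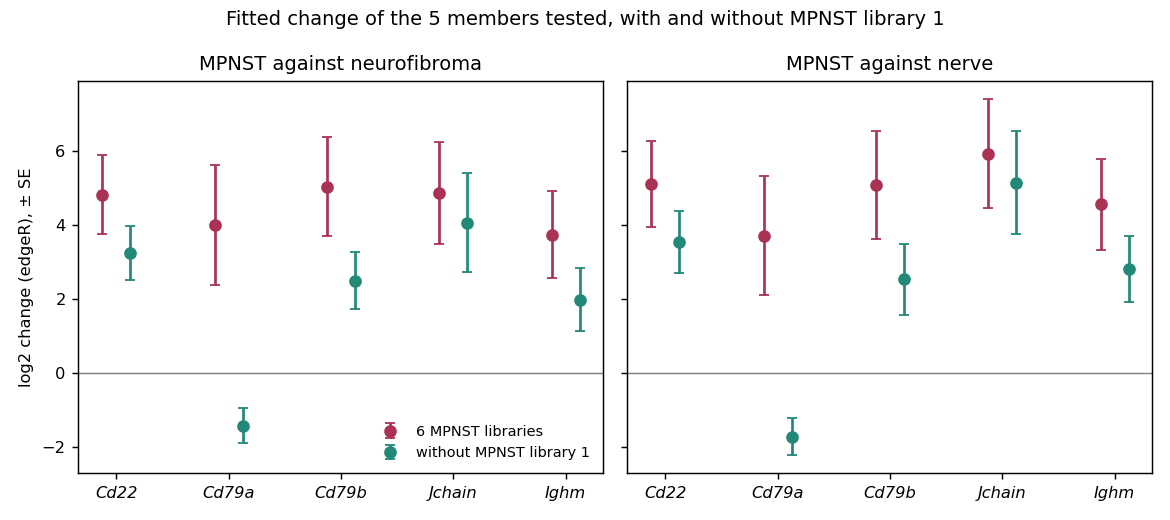
Fitted log2 change ± SE (edgeR) of the 5 members tested, for MPNST against neurofibroma (left) and against nerve (right), with all 6 MPNST libraries and without MPNST library 1. Cd79a moves from 4.0 to -1.43 and from 3.71 to -1.73, while the other 4 stay above 0.

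The order of columns in the deposited table falls into 2 ascending runs of names, each with 3 libraries of every group; no label calls them a batch. The first run holds MPNST libraries 1, 2 and 4 and the second 3, 5 and 6. Within the first run 4 members were higher against neurofibroma (11.6% of all genes higher) and 6 against nerve (13.3%). Within the second, 0 and 0 were called (3.11% and 2.78% of all genes higher). At an unadjusted p below 0.05 the counts were 0 and 2, for which no share of all genes was computed. The 3 immunoglobulin-rich MPNST all stand in the first run.

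The further B lineage list was mostly higher in MPNST against neurofibroma. Of 13 genes tested 10 rose and 3 were not called, beside 25.3% of all genes higher (median 2.84, beside 0.22 over all genes). Among the 10 were Ltb (4.79, SE 1.30, adjusted p = 0.0117, edgeR), a lymphoid tissue cytokine, and Blnk (3.07, SE 0.72, adjusted p = 0.00542), an adaptor of the B cell receptor. Without MPNST library 1, 8 of 13 were called, beside 23.9% of all genes. Cd72, Btk, Blnk and Pik3ap1, which B cells share with macrophages, were among those 8, and MPNST library 5 was the highest of all 18 for Cd72 (157 CPM) and Pik3ap1 (113 CPM). With all 6 MPNST libraries, macrophage markers rose in 9 of 10 and T cell markers in 6 of 6, beside the same 25.3% of all genes. The part of those cells in the B lineage rises was not tested.

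Genes close to mature B cells gave a narrower picture. Cr2, the complement receptor of B cells and follicular dendritic cells, held 346 CPM in MPNST library 1, 16.8 CPM in nerve library 1 and at most 1.94 CPM in the rest. Ighd, the delta heavy chain of naive B cells, held 82.5 CPM in that tumour, with 3.39 CPM in MPNST library 5 next. Fcer2a, the low-affinity IgE receptor, held 20.0 CPM there and at most 0.216 CPM elsewhere. Ebf1, a B lineage factor also made by stromal cells, went the other way. It fell against nerve (log2 change -1.84, SE 0.64, adjusted p = 0.0333, edgeR), and at 102 CPM in MPNST library 1 it was above nerve library 6 (100.7 CPM) alone of the trigeminal libraries.

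MPNST library 1 was also the highest in T cell markers (list level 5.12, next 3.24 in MPNST library 5) and in lymph node stroma genes (3.51, next 1.86). Glycam1, a mucin of lymph node venules, held 42.2 CPM there and Ccl19, a chemokine of the T cell zone, 39.4 CPM. Cxcl13, which attracts B cells into follicles, held 178 CPM in library 1, 119 in library 4 and 118 in library 5. Glycam1, Cr2 and Fcer2a were chosen after their values were seen. With all 6 MPNST libraries against neurofibroma, 5 lymph node stroma genes were tested. Of these 2 rose, 1 fell and 2 were not called, beside 25.3% of all genes higher and 16.8% lower. Whether lymphoid tissue lay in this sample was not tested.

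**Figure D3:**
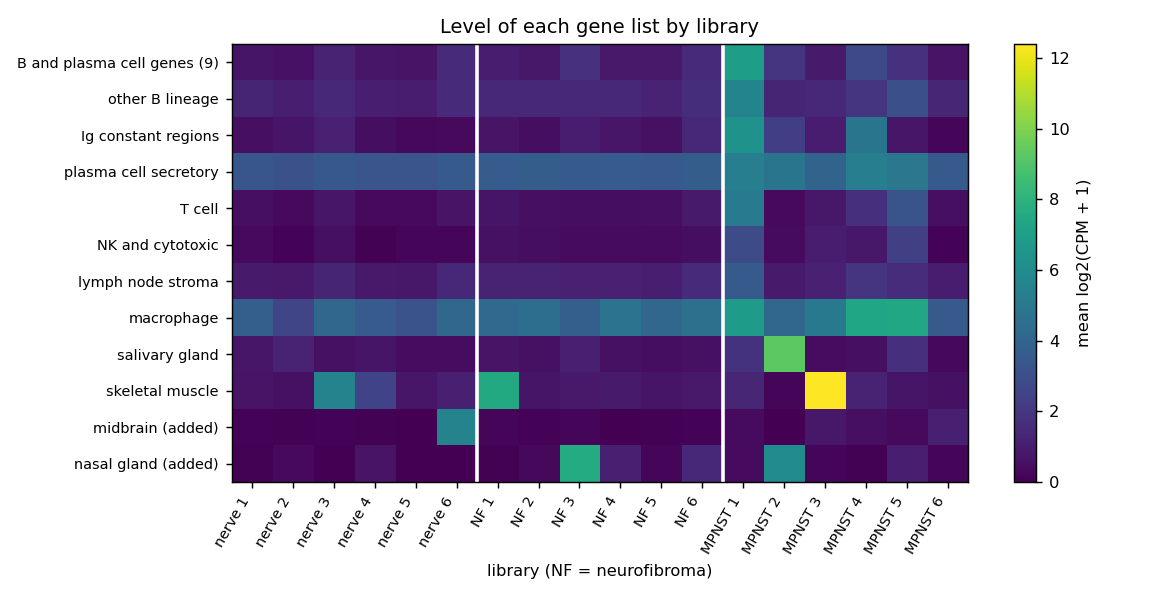
Mean log2(CPM + 1) of 12 gene lists in each of the 18 libraries (colour scale from 0). MPNST library 1 is high in the members (6.96), the further B lineage genes (5.60) and T cell genes (5.12), MPNST library 2 in salivary genes (9.27) and MPNST library 4 in immunoglobulin constant genes (4.81).

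In MPNST library 4 Igkc, Igha and Jchain came closer to library 1 than the receptor genes Cd22, Cd79a, Cd79b and Ms4a1 did. Against the level in MPNST library 1, it reached 31.4% for Igkc, the kappa light chain, 24.2% for Jchain, 33.4% for Igha and 15.4% for Ighm. The remaining members lay lower, at 6.63% for Mzb1, 4.86% for Cd22, 4.85% for Pou2af1, 4.24% for Cd79b, 2.34% for Pax5, 0.442% for Ms4a1 and 0.390% for Cd79a. Ighg1, a heavy chain of IgG, was higher there (235 CPM) than in library 1 (127 CPM). Prdm1 stood at 155 CPM, against at most 10.7 CPM in any other library. MPNST library 2 reached 34.1% for Igha, 19.3% for Jchain and 7.35% for Igkc, but 1.83% for Ighg1. Its other members ran from 0.224% for Cd79a and 0.339% for Ms4a1 to 2.01% for Mzb1 and 6.38% for Cd22, so Cd22 stood above a secretory member. With TMM-scaled CPM these shares were higher, at 94.6% for Igha, 53.5% for Jchain and 0.621% for Cd79a. Pigr, which carries polymeric IgA across gland epithelium, stood at 540 CPM in library 2.

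Heavy chain classes set these libraries apart. Of 39667 heavy chain constant region counts in MPNST library 1, 50.2% were Ighm (95% Wilson interval 49.7 to 50.7%), 28.4% the 4 IgG genes and 17.7% Igha. In library 4, IgG genes took 60.6% of 18338 counts (59.9 to 61.4%) and Ighd 0.0327% (0.0150 to 0.0714%), against 3.64% in library 1. In library 2, Igha took 84.7% of 3813 counts (83.5 to 85.8%). In library 5, Ighm took 93.6% of 1816 counts (92.3 to 94.6%). These intervals cover counting error only, and Salmon's split among similar IgG genes is uncertain.

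**Figure D4:**
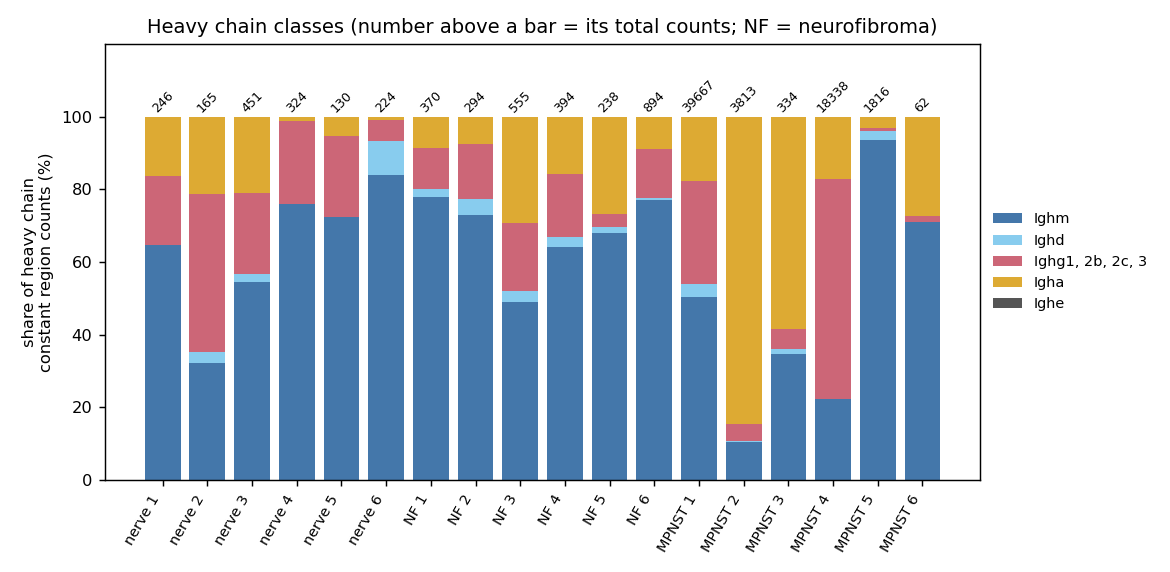
Share of heavy chain constant region counts by class in each library, with the total counts above each bar. IgG genes lead in MPNST library 4 (60.6%), Igha in library 2 (84.7%) and Ighm in library 5 (93.6%); bars with few counts, such as the 62 of the library labelled MPNST 6, are imprecise.

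MPNST library 5 had mu heavy chain counts without matching light chain counts. Its Ighm was 122 CPM and its Igkc 5.19 CPM, a ratio of Igkc to Ighm counts of 0.0424, against 1.16 in library 1, 2.36 in library 4 and 5.80 in library 2. The ratio was 0.0319 to 1.60 over nerve and 0.140 to 0.526 over neurofibroma. Only 25 counts fell on variable segments in library 5, with 8437 in library 1 and 6048 in library 4. Jchain was 1.87 CPM and Cd79a 0.216 CPM there. Library 5 also held the highest macrophage level of the 18 (7.45) and the next T cell level (3.24) after library 1; their part in its Ighm was not tested.

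**Figure D5:**
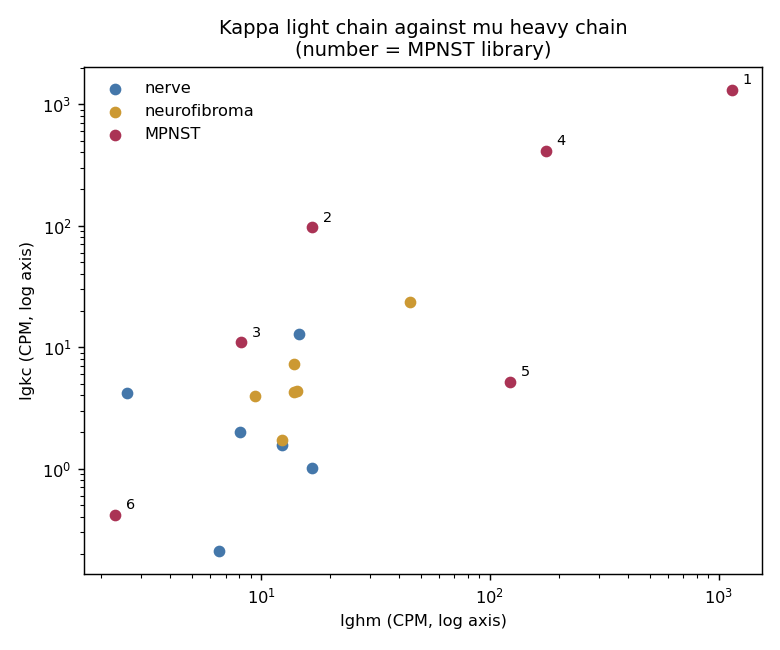
Igkc against Ighm in 18 libraries, both in CPM on log axes; numbers name MPNST libraries. Libraries 1, 4 and 2 lie high in Igkc (1315, 413 and 96.6 CPM), and library 5 lies at 122 CPM of Ighm with 5.19 CPM of Igkc.

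Variable segments, of which a B cell clone uses 1 per chain, were spread over many genes in the rich libraries. Of 346 in the table, 129 had at least 10 counts in MPNST library 1, 118 in library 4 and 50 in library 2, against at most 4 in any other library. The highest single segment took 5.50% of variable counts in library 1 (Igkv3-2), 4.17% in library 4 (Igkv4-55) and 6.54% in library 2 (Igkv10-96). Neurofibroma library 6, highest of its group in Ighm and Jchain, had 37.2% of its 180 variable counts on Igkv10-96. Libraries 1 and 4 shared 101 segments with at least 10 counts, 78.3% of those in the first and 85.6% in the other. Near-identical segments share reads, so the split among them is uncertain.

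Immunoglobulin constant genes rose in 3 of 4 tested against neurofibroma (median 5.41, beside 0.22 over all genes) and in 2 of 3 against nerve. Of all genes, 25.3% and 27.6% were higher in these comparisons. Against neurofibroma Igha rose by 5.35 (SE 1.33, adjusted p = 0.00749, edgeR), Ighg2b by 6.88 (SE 1.75, adjusted p = 0.0084) and Igkc by 5.46 (SE 1.56, adjusted p = 0.015). Plasma cell and secretory genes rose in 18 of 19 tested (median 2.02), beside 25.3% of all genes. Without MPNST libraries 1, 2 and 6 they rose in 16 of 19 (median 1.03), beside 28.8%. Without libraries 1, 2 and 4 they rose in 6 of 18 (median 0.81), beside 20.9%. In that fit 0 of 3 immunoglobulin constant genes rose (median -0.29), which follows from choosing the libraries richest in immunoglobulin. Against nerve it gave 13 of 17 and 0 of 3, beside 21.2%. With TMM-scaled CPM the plasma list level was highest in libraries 2, 1 and 4 (5.95, 5.16 and 5.14, next 4.75 in library 5). The fits without libraries 1, 2 and 4 thus also left out the highest libraries of this list. Derl3, which clears misfolded secretory proteins, rose by 6.13 against neurofibroma (SE 1.82, adjusted p = 0.0178, edgeR). It held 77.3 CPM in the salivary-rich library 2 and at most 3.48 CPM in the others. Sdc1, the plasma cell surface marker also made by epithelial and tumour cells, held 131 CPM in library 4 and 85.2 in the library labelled MPNST 6, which held 4.19 CPM of all immunoglobulin genes together.

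Genes that support B and plasma cells rose in 6 of 8 tested against neurofibroma, beside 25.3% of all genes, and in 4 of 8 without MPNST library 1, beside 23.9%. Cxcl13 rose by 5.22 (SE 1.36, adjusted p = 0.00958, edgeR) and Cd40, the costimulatory receptor, by 4.18 (SE 0.90, adjusted p = 0.00358). Tnfsf13b, which encodes the survival factor BAFF, rose by 2.06 (SE 0.59, adjusted p = 0.0154) and was highest in MPNST library 5 (31.5 CPM), not in library 1 (23.3 CPM). Of 8 germinal centre genes 4 were tested and 1 rose, beside the same 25.3% of all genes.

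The genes most like the members over the 18 libraries, by Spearman correlation with their mean log2(CPM + 1), were Slc26a2 (0.936), Ifi205 (0.895), H2-T24 (0.889), Ipcef1 (0.880), F11r and Tnfrsf13b (both 0.878), Myo1g (0.874), Akr1b10 and Echdc3 (both 0.872) and Bin2 (0.868), among 14658 genes ranked. Tnfrsf13b encodes TACI, a receptor of B and plasma cells. These values share libraries and depth with the members and are given as a description. The mean was taken on unscaled CPM, which puts MPNST library 2 at 1.86 (2.68 with TMM-scaled CPM). It also includes Pax5, which was high in neurofibroma library 3 and nerve library 6.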

How the data were processed

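Poly(A) RNA of 6 normal nerve, 6 plexiform neurofibroma and 6 MPNST libraries was column-purified and made into stranded libraries, per the labels' protocols. The values deposited by the authors are Salmon's estimated counts (expected counts) for each gene, with no further scaling; Salmon 1.4.0, FastQC, DESeq2 and GRCm39 are named in the submitters' processing notes. Annotation release, Salmon's settings and use of strand: not given in the sources used here. Every column matched a sample (0 without), and 0 rows lacked a gene name. Where nothing says that samples of a trigeminal group came from separate mice, p-values measure the spread between these samples.

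Counts were rounded. CPM used raw totals, and were also divided by TMM factors; list levels are means of log2(CPM + 1). Each pair of groups was fitted over all genes by the quasi-likelihood test of edgeR 4.0.16 (R 4.3.3; TMM scaling, filterByExpr, two-sided, Benjamini-Hochberg, called below 0.05), after tests on simulated data. A floor of 3 counts marks a gene not detected. Alternatives were RLE and upper quartile scaling, other filters, DESeq2 1.42.0, limma-voom (limma 3.58.1), one fit of all 18, a robust fit, totals without immunoglobulin genes, and leaving out libraries; fits without nerve 6 and neurofibroma 3, without MPNST 1, 2 and 4, and within each run of columns were chosen after seeing the data.

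The members and lists (19, with 200 entries, 1 not in the table, and 2 added lists) were chosen with earlier results of these data known. Named were all members, members of the further B lineage, plasma and immunoglobulin lists, and of other lists the smallest adjusted p and the highest level; others are said to be chosen afterwards. Of the promoter motifs, the EBF1 palindrome and CCCNNGGG were added after a first search for TCNNGGGA, which had been taken for the EBF1 site in error; the latter stood in Cd79a and Pax5 and in 18.1% of promoters, and is not used. In another build's annotation, Cd22, Ms4a1, Mzb1, Pou2af1 and Pax5 overlap other genes, so their counts may be shared.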

Additional observations from a re-analysis of the deposited data

Results flagged for a closer look

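Of 36 sets of 6 libraries looked at, 22 had a highest library set apart from the others by more than Dixon's 95% critical value. That value flags about 1 in 20 independent, normally distributed sets. These sets share libraries and hold CPM that were not log-scaled, so the 22 cannot be compared with that rate. MPNST library 1 stood apart for all 9 members: Cd22 (92.8 CPM), Cd79a (132.1), Cd79b (86.2), Ms4a1 (87.4), Jchain (281.1), Mzb1 (33.7), Ighm (1137), Pou2af1 (57.6) and Pax5 (113.7). It also stood apart for Igkc (1315 CPM), Igha (400.0) and summed immunoglobulin (4154). These are unscaled CPM, which are lowered in MPNST library 2. With TMM-scaled CPM the lead of MPNST library 1 over library 2 was 1.87-fold for Jchain and 1.06-fold for Igha. The rule was not run on TMM-scaled values.

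In nerve, library 3 stood apart for Jchain (4.45 CPM), Igkc (12.9) and Igha (5.64), and library 6 for Cd79a (3.73) and Pax5 (14.1). In neurofibroma, library 6 stood apart for Jchain (9.08 CPM), Ighm (44.9), Igkc (23.4) and summed immunoglobulin (94.8), and library 3 for Pax5 (46.5).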

How the results depend on the processing

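No paired analysis was possible because the labels give no replicate numbers; the numbers used here only name libraries. Against nerve, neurofibroma gave 0 called members under every setting run. At an unadjusted p below 0.05 it gave 0 or 1, for which no share of all genes was computed. For Cd79a this log2 difference turned to 0.12 without nerve library 6, 0.13 without nerve 6 and neurofibroma 1, and 0.59 within the first run of columns, where Cd22 stood at -0.34 and Jchain at -0.45. For MPNST against neurofibroma 4 members were called, all higher, beside 25.3% of all genes higher. Without MPNST 1, 2 and 6 the count was 5 (4 higher, 1 lower), beside 28.8% higher and 27.6% lower. Without 1, 2 and 4 it was 2 (1 higher, 1 lower), beside 20.9% and 16.2%. Within the second run it was 0, beside 3.11% higher. With no filter on low counts, Ms4a1 and Pou2af1 were called as well, beside 11.3% higher. The count, in either direction, was 3 to 5 on leaving out 1 library. Without MPNST 1, 3 were higher and 1 lower, beside 23.9% higher and 15.3% lower. For MPNST against nerve 4 members were called, all higher, beside 27.6% of all genes higher. With no filter on low counts the count was 7, all higher, beside 12.8%. Ms4a1, Mzb1 and Pou2af1, among these, rest mostly on MPNST library 1. Without MPNST 1, 2 and 6 it was 5 (4 higher, 1 lower), beside 28.6% higher and 27.9% lower. Without 1, 2 and 4 it was 2 (1 higher, 1 lower), beside 21.2% and 17.1%. Within the second run it was 0, beside 2.78% higher. The count, in either direction, was 4 to 5 on leaving out 1 library. Without MPNST 1, 3 were higher and 1 lower, beside 25.7% higher and 16.7% lower.

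Cd79a reversed in MPNST wherever library 1 was out: against neurofibroma -1.43 without it, -1.91 without 1, 2 and 6 and -1.85 without 1, 2 and 4; against nerve -1.73, -2.22 and -2.18, and -2.63 within the second run. Jchain against neurofibroma was -0.14 without 1, 2 and 4 and -0.60 within the second run. Leaving out 1 library in turn, the Cd79a difference ran from -0.50 to 0.12 for neurofibroma against nerve, from -1.43 to 4.32 for MPNST against neurofibroma and from -1.73 to 4.09 for MPNST against nerve. These settings hold fewer samples. Ms4a1, Mzb1 and Pou2af1 outside MPNST library 1, and Cd79a in the other MPNST, rest on few counts, which limits what can be detected.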
